A study of Mus musculus with 2 samples.

Results

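The genes described here encode the filament and microtubule skeleton of the axon: the neurofilament chains Nefl, Nefm and Nefh, the related filament proteins Prph (peripherin) and Ina (alpha-internexin), the microtubule-associated proteins Map2, Mapt (tau), Map1b and Map1a, and Uchl1, a ubiquitin hydrolase abundant in neuronal cytoplasm. They were chosen by name, and every non-control probe whose gene name in the scanner files was one of these 10 was taken. That gave 29 of 56605 probes, of which 27 were well above background on both arrays and are called measured. Gene expression was profiled with 1-colour Agilent arrays in dorsal root ganglion (DRG) neurons of 2 genotypes with 1 array each. The first was Dock8-/- with the AND T cell receptor transgene, labelled with a high interleukin-31 (IL-31) level, and the second was Dock8+/- with the same transgene, labelled with a low IL-31 level. Both were on the C57BL/6 strain, so the animals of both groups carried the transgene and at least 1 disrupted Dock8 allele. DOCK8 activates small GTPases and is known mainly from immune cells, whereas IL-31 is an itch-inducing cytokine whose receptor is carried by a class of DRG neurons. The age and number of animals behind each array are not given in the sources used here.

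DRG neurons send 1 axon that branches to the skin and to the spinal cord. Neurofilaments are polymers of a light, a medium and a heavy chain that fill large axons and set their calibre, and antibodies to the heavy chain are a standard label of large myelinated sensory neurons. Peripherin is the filament protein typical of small unmyelinated neurons, and alpha-internexin co-assembles with the neurofilament chains. Tau and the MAP1 proteins bind and stabilise axonal microtubules, whereas MAP2 is best known from dendrites and cell bodies and is widely used as a neuronal marker.

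With 1 array for each genotype there is no test, and every difference is between 2 samples, without a replicate check. Differences are log2 intensity in Dock8-/- minus that in Dock8+/- after subtraction of each array's 75th percentile, at intensities of 145.6 for Dock8-/- and 303.8 for Dock8+/-. A 2-fold difference is used as a description of size. The share of non-control probes well above background was 50.7% for Dock8-/- and 56.9% for Dock8+/-. Each member probe had 1 spot. Over 298 measured probes with 10 spots, the spot error gave an SD of 0.064 for a difference between 2 spots on the log2 scale. Probes of 1 gene disagreed far more, with a root mean square SD of 0.61 over 6234 genes with at least 2 measured probes. All 15 pan-neuronal markers were measured on both arrays, with a median difference of 0.15 and values from -0.37 to 3.09. Of these, 10 lay above 0 and 5 below. By the 2-fold rule 2 were higher (13.3%, against 9.08% of all measured genes) and 0 lower (against 7.04%). These 2 were Pou4f1 and Scn9a. The value of 3.09 came from a Pou4f1 probe that holds a purine repeat, and the 3 Pou4f1 probes ran from 0.09 to 3.09. Scn9a had 1 measured probe, with intensities of 141.4 in Dock8-/- and 138.1 in Dock8+/-. The labels could not be checked through Dock8, since only 1 of 5 probes was well above background, in the Dock8+/- sample alone (6.87 in Dock8-/- and 20.5 in Dock8+/-), and the sources used here do not give the deleted part of the gene. In a bulk sample, fewer cells of a type and less RNA per cell cannot be told apart.

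Array probes read 60 bases of a transcript, and the probes of 1 gene can read different parts of it. The 8 sequences that follow are probes, at least 1 for each of 6 genes, that lie in protein-coding sequence, as far as the known proteins tell. They are shown because results differ in size between probes of the same mRNA, by 0.89 for Nefm, 1.06 for peripherin and 0.93 for Map2. Within each of Nefm, peripherin, Map2, Map1b and Map1a, the measured probes had the same sign. Positions were taken from the scanner files (mouse build mm9), and no annotation of exons or untranslated regions was used here. The Nefm tail probe lies at chr14:68738193-68738252 (minus strand), the peripherin rod probe at chr15:98887297-98887356 (plus) and the peripherin end probe at chr15:98889042-98889101 (plus). The Map2 probe shown lies at chr1:66463380-66463439 (plus). Its label, long exon, was not checked against an annotation. The tau probes lie at chr11:104143710-104143768 (plus, N-terminal) and chr11:104189430-104189489 (plus, C-terminal), the Map1b probe at chr13:100204235-100204294 (minus) and the Map1a probe at chr2:121124354-121124413 (plus). Capitals mark the stop codon of peripherin, and no other feature is marked.
Nefm tail: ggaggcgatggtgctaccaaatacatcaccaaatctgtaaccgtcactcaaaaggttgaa
Prph rod: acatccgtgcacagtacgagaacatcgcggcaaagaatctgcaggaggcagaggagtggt
Prph end: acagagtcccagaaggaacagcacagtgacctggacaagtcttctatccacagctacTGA
Map2 long exon: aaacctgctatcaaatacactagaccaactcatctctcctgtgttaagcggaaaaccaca
Mapt N-terminal: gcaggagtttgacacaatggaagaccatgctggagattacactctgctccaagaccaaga
Mapt C-terminal: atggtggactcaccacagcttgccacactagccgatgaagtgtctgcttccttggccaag
Map1b: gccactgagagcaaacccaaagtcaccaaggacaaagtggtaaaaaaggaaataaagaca
Map1a: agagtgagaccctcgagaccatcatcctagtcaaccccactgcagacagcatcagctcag

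The filament genes lay below 0 and Map2, Map1b and Map1a above it on their brightest probes, all by less than 2-fold, while Mapt and Uchl1 lay near 0 on the 75th percentile scale. All 5 filament genes were lower in the Dock8-/- sample on their brightest probe, with differences from -0.49 to -0.15 and a median of -0.32. All 4 microtubule-associated protein genes were above 0 on theirs, from 0.04 to 0.51 with a median of 0.45, and Uchl1 lay at 0.12. The 5 genes above 0 and 5 below compare with 51.8% and 48.2% of 18648 measured genes. None of the 10 genes was 2-fold apart on its brightest probe (0 higher and 0 lower), whereas 9.08% of measured genes were higher and 7.04% lower by that much. The median of the 10 genes was -0.06, and that of all measured genes was 0.03. Among measured genes, the member differences ran from percentile 20.7 (Nefm) to percentile 76.2 (Map2). The 5 filament genes were below 0 under all 9 alternative settings computed for them. Some of these settings could not turn them: spike-in scaling and scaling to the median lower every value alike, and no filament probe holds a purine repeat. Map2, Map1b and Map1a were above 0 under all but spike-in scaling. That scaling shifted every difference by -1.85 and put all 27 measured member probes below 0. The directions of Mapt and Uchl1 depended on the setting. Mapt lay at -0.19 with scaling to the median, at -0.18 with normexp background correction, at -0.18 without probes that hold a purine repeat and at -0.09 as the mean of its probes. Uchl1 lay at -0.11 with scaling to the median, at -0.10 with normexp, at -0.47 with quantile normalisation and at -0.44 in the authors' value table.

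Of the 9 measured filament probes, 8 were below 0 and the remaining 1 lay at 0.01, and 45.0% of all measured probes were below 0. All 9 lay in the brightest of 5 equal groups of measured probes. The median difference of that group was -0.05, against 0.08 over all measured probes. The part of signal level in the filament values was not tested. All 12 probes of Map2, Map1b and Map1a were above 0, from 0.39 to 1.44, against 55.0% of all measured probes. Map2, Map1b and Map1a were set apart from Mapt after the values were seen. The lowest of these 12 lay at 0.39 and the highest filament probe at 0.01, a gap that the choice of genes helped to set. With normexp the lowest of the 12 lay at 0.15 and the highest filament probe at -0.20. Of the 27 member probes, 2 were at least 2-fold higher, where 11.8% of all measured probes were, and 2 were at least 2-fold lower, where 7.07% were. Both shares are near those of all probes.

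**Figure D1:**
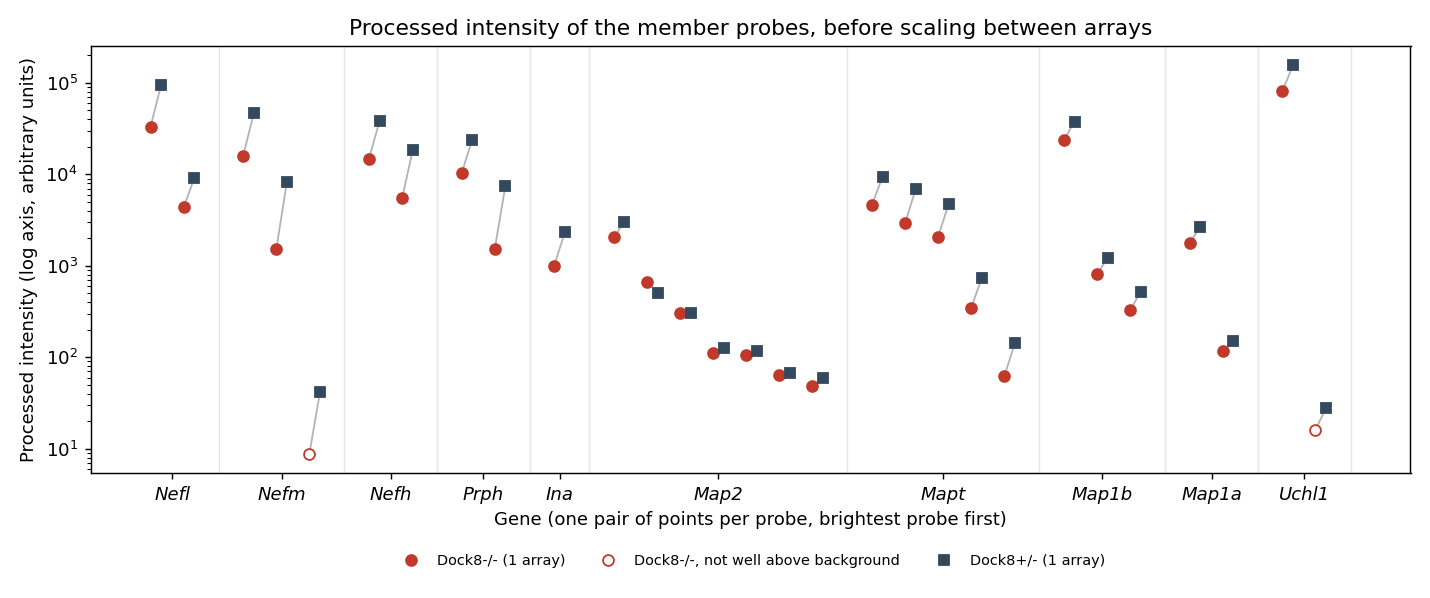
Processed intensity of all 29 member probes before scaling between arrays, on a log axis, with the Dock8-/- array (circles) left of the Dock8+/- array (squares) for each probe and open circles for probes not well above background. Every probe except 1 Map2 probe was dimmer in Dock8-/-, on arrays whose 75th percentiles were 145.6 (Dock8-/-) and 303.8 (Dock8+/-). Most Map2 pairs lie nearly level.

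Nefl, which encodes the light chain on which the other neurofilament chains assemble, was read by a probe pair on the plus strand of chromosome 14. The brighter probe had an intensity of 33042 in Dock8-/- and 95094 in Dock8+/-, a difference of -0.46 or 1.38-fold lower. The second, which lies further downstream, had 4360 in Dock8-/- and 9058 in Dock8+/-, a difference of 0.01. The Nefl probes disagreed by 0.47, close to the median range of 0.51 over 4238 genes with exactly 2 measured probes.

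Nefm, the medium chain, was read by 3 probes on the minus strand of the same chromosome. Its brightest probe had 15977 in Dock8-/- and 46749 in Dock8+/-, a difference of -0.49. The coding tail probe printed above had 1524 in Dock8-/- and 8240 in Dock8+/-, or 2.59-fold lower (difference -1.37), which placed it at percentile 3.37 of measured probes. This was the lowest value of any member probe. The remaining Nefm probe had 8.85 in Dock8-/-, not well above background, and 41.7 in Dock8+/-, so only a bound can be given, at least 1.24-fold lower. All 3 Nefm probes were lower in Dock8-/-, and the measured pair differed from each other by 0.89.

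Nefh encodes the heavy chain, whose long phosphorylated tail projects from the filament. Its probes lie 160 bases apart on the minus strand of chromosome 11. The brighter had 14750 in Dock8-/- and 38333 in Dock8+/-, a difference of -0.32, and the other 5447 in Dock8-/- and 18284 in Dock8+/-, a difference of -0.69. Both were lower in Dock8-/-, by 1.25-fold and 1.61-fold.

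Peripherin gave the widest disagreement between probes of any member. Its end probe, which runs to the stop codon, had 10289 in Dock8-/- and 23942 in Dock8+/-, a difference of -0.16. Its rod probe had 1522 in Dock8-/- and 7374 in Dock8+/-, a difference of -1.22 or 2.32-fold lower. The range of 1.06 lies below 1.40, the 90th percentile of the range over genes with 2 measured probes. Ina, read by 1 probe on chromosome 19, had 1008 in Dock8-/- and 2336 in Dock8+/-, a difference of -0.15.

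Map2 was the member with the most probes and the largest higher values. Its brightest probe had 2065 in Dock8-/- and 3028 in Dock8+/-, a difference of 0.51 or 1.42-fold higher. The second had 663.0 in Dock8-/- and 508.6 in Dock8+/-, a difference of 1.44 or 2.72-fold higher, at percentile 95.7 of measured probes, and was the only member probe with a higher intensity in Dock8-/- before scaling. Next in brightness was a probe with 304.5 in Dock8-/- and 308.4 in Dock8+/-, a difference of 1.04. The other 4 Map2 probes differed by 0.80 to 0.98, the probe printed above among them by 0.98. All 7 Map2 probes were therefore higher, with a median of 0.91. Genes with many probes often behaved so: of 53 genes with 6 or more measured probes, 49.1% had every probe above 0 and 0% every probe below 0. Dim probes were higher in general, with a median difference of 0.52 in the dimmest of 5 equal groups of measured probes and -0.05 in the brightest. Of the Map2 probes, 4 lay in the 2 dimmest groups and 1 in the brightest, where it differed by 0.51. The part of signal level in the Map2 result was not tested. The range of 7 probes was 0.93, less than the median range of 1.31 over those 53 genes.

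Mapt, the tau gene, differed least between the arrays, on this scale, among the 10 genes. Its 5 probes on the plus strand of chromosome 11 gave differences from -0.18 to 0.04, 4 of them below 0. The brightest, which holds a purine repeat, had 4641 in Dock8-/- and 9441 in Dock8+/-, a difference of 0.04. The C-terminal coding probe had 2914 in Dock8-/- and 6904 in Dock8+/-, a difference of -0.18, and the N-terminal probe 62.3 in Dock8-/- and 143.6 in Dock8+/-, a difference of -0.14. The range of 0.22 over these probes is small beside the median range of 1.13 over 535 genes with 4 or 5 measured probes.

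Map1b, a large microtubule-binding protein of growing and adult sensory axons, was 1.32-fold higher on its brightest probe, the coding one, with 23771 in Dock8-/- and 37645 in Dock8+/-. Its other probes had differences of 0.47 and 0.39, so that all 3 lay within a range of 0.09. The median range was 0.92 over 1408 genes with exactly 3 measured probes. Map1a, its relative of mature neurons, had 1788 in Dock8-/- and 2634 in Dock8+/- on its downstream probe, a difference of 0.50. Its N-terminal coding probe had 115.9 in Dock8-/- and 152.2 in Dock8+/-, a difference of 0.67. Both Map1a probes were thus higher in Dock8-/- by 1.42-fold and 1.59-fold.

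Uchl1, also known as PGP9.5 and used to stain nerve fibres in skin, had 80763 in Dock8-/- and 155552 in Dock8+/-, a difference of 0.12. Its second probe had 16.03 in Dock8-/-, not well above background, and 28.0 in Dock8+/-, near the lowest signal well above background there (17.4), so no fold is given. Its direction turned with other scalings, to as low as -0.47 with quantile normalisation.

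**Figure D2:**
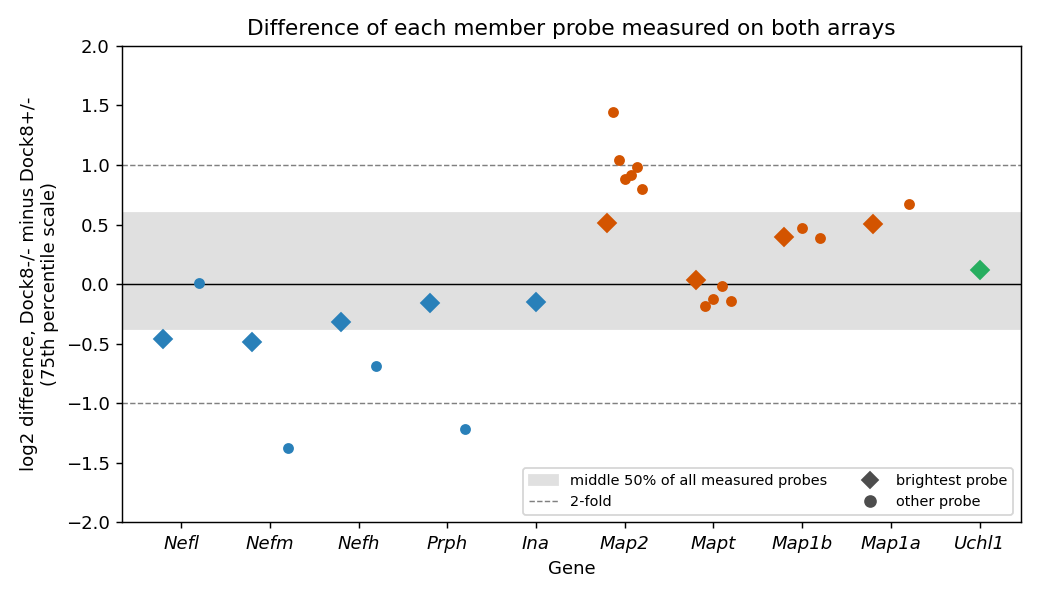
Log2 difference, Dock8-/- minus Dock8+/-, of the 27 measured member probes on the 75th percentile scale, with diamonds for the brightest probe of a gene, filament genes in blue, microtubule-associated protein genes in orange and Uchl1 in green. The grey band holds the middle 50% of all measured probes (-0.38 to 0.60). All brightest probes lie inside it or just below it (Nefl and Nefm, at -0.46 and -0.49), and 1 probe each of Nefm and Prph and 2 of Map2 lie past the 2-fold lines.

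Within the filament genes, the upstream probe of a transcript was the lower one in each of the 3 transcripts with 2 measured probes. The upstream minus downstream difference was -0.89 for Nefm over 592 bases, -1.06 for Prph over 653 bases and -0.37 for Nefh over 160 bases. The Nefl probes, assigned to different transcripts, had the same order (-0.46 upstream and 0.01 downstream). Over 1373 transcripts with probes from 500 to under 1500 bases apart, the median of that difference was 0.03 and the middle 50% ran from -0.53 to 0.57. Of those transcripts, 12.5% had a lower value than Nefm and 7.79% a lower value than Prph. For probes less than 500 bases apart the median was -0.19, and 32.4% of 1017 transcripts had a lower value than Nefh. Among the 6 transcripts of microtubule genes with such a pair, the upstream probe was the lower one in 2. Values were 0.93 and -0.07 for the 2 Map2 transcripts, 0.04 and 0.16 for those of Mapt, -0.07 for Map1b over 8718 bases and 0.17 for Map1a over 9201 bases. Over 706 transcripts with probes at least 3000 bases apart, the upstream probe was lower in 20.4% and the median was 0.48. The part of probe position in the filament values was not tested. By base composition, the medians of all measured probes ran from -0.04 (50% to 55% GC) to 0.13 (35% to 40% GC). The median was 0.06 for 45% to 50% GC, which holds the Nefm tail probe, and 0.03 for 55% GC or more, which holds the peripherin rod probe. The part of base composition in the filament values was not tested.

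**Figure D3:**
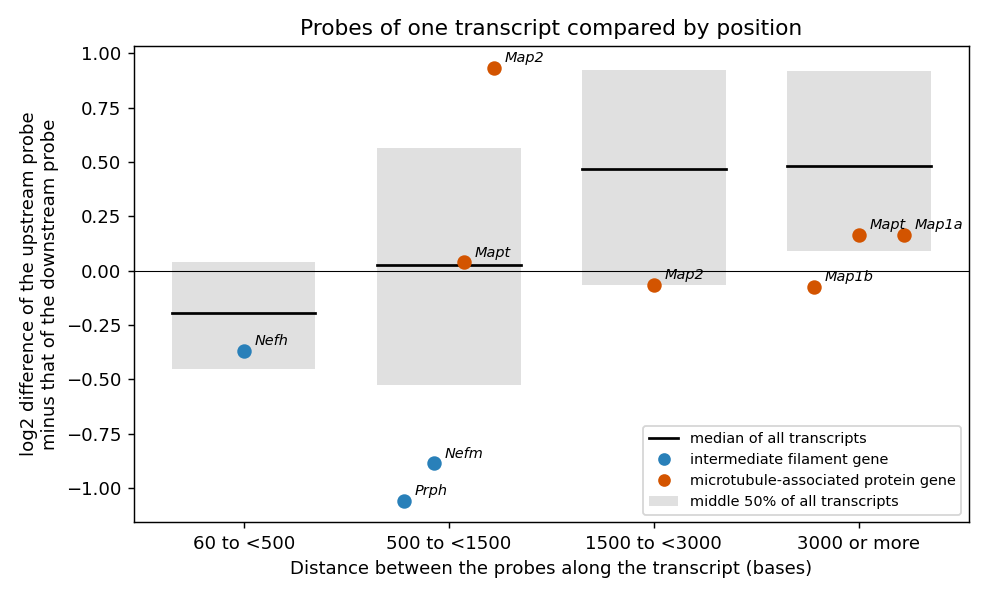
Log2 difference of the upstream probe minus that of the downstream probe of the same transcript, by the distance between them, with members as points, and the median (line) and middle 50% (grey) of all transcripts in each distance class. Prph (-1.06) and Nefm (-0.89) lie below the grey range of their class, Map2 (0.93) lies above it, and Map1b (-0.07) lies below that of the longest class.

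The rest of the cytoskeleton was read through 9 lists, of which 164 of 172 genes were measured. By the 2-fold rule 9 of these were higher and 4 lower (5.49% and 2.44%, against 9.08% and 7.04% of all measured genes), and the median was 0.08. Among 11 other intermediate filament genes the median was -0.33, with 7 below 0. Gfap, the filament of astrocytes and of reactive satellite glia, was among the 4 above 0, with 4570 in Dock8-/- and 1133 in Dock8+/- (8.42-fold higher). Krt19, an epithelial keratin, was 3.61-fold lower, Bfsp2, a lens filament gene, differed by -0.92 and Lmnb2, a nuclear lamin gene, by -0.52. Vim (vimentin, the filament of non-neuronal cells) differed by -0.34 and Nes (nestin) by -0.13.

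Tubulins, the subunits of the microtubule itself, differed little, with a median of 0.09 over 15 genes. The neuronal isotype Tubb3 lay at 0.15 and Tubb2b at 0.59. Tuba1c was 3.34-fold lower on its brightest probe, but its 3 probes ran from -1.74 to 0.31. Tuba8 and Tubb6 lay at -0.76 and -0.66. Other microtubule-associated proteins had a median of 0.05 over 25 genes, with 1 at least 2-fold higher, Map7, which recruits kinesin-1 to microtubules, at 1.40 (probes from 1.40 to 1.73). The plus-end proteins Clasp2 and Clip1 lay at 0.97 and 0.83, and Map1lc3a, an autophagy protein that was first found bound to MAP1, and Clip2 at -0.55 and -0.50. Stathmins and collapsin response mediator proteins, which bind tubulin dimers, had a median of 0.03 over 9 genes. Stmn4 was 2.16-fold higher, Dpysl2 and Crmp1 lay at 0.60 and 0.50, and Stmn2, a protein of regrowing axons, at 0.03.

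Motors of axonal transport had a median of 0.22 over 30 genes, with 21 above 0. By the 2-fold rule 1 was higher and 0 lower (3.33% and 0%, against 9.08% and 7.04% of all measured genes). The kinesin gene Kif21b had probes at 1.25 and 0.18, Kif2a at 0.81 and Kif1b at 0.64, with Kif1b probes from -0.86 to 1.72. Kif5a, the neuronal kinesin heavy chain that carries neurofilaments, lay at 0.25, and Dynll1, a dynein light chain gene, at -0.50. Enzymes that modify or sever tubulin had a median of 0.32 over 18 genes, and 3 were at least 2-fold higher (16.7%) and 1 lower (5.56%). The tubulin polyglutamylase Ttll7 lay at 1.41 (probes from 0.67 to 1.41) and Vash1, a tubulin detyrosinase, at 1.39 (probes from 0.81 to 1.39). Ttll4 lay at 2.01, from a single dim probe with intensities of 59.0 in Dock8-/- and 30.6 in Dock8+/-. The tubulin acetylase gene Atat1 was 2.05-fold lower by its brighter probe, while the second lay at -0.14, and Ttll5 and the vasohibin partner Svbp lay at -0.62 and -0.51.

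Kinases that phosphorylate tau or neurofilament tails, and related regulators, had a median of 0.04 over 22 genes. Cdk5, the neuronal kinase of both substrates, differed by -0.69 (probes -0.69 and -0.55) and Mapk3 (ERK1) by -0.76. Dyrk1a was 2.82-fold higher, with a probe as low as 0.49, and Mark3 and Camk2a lay at 0.77 and 0.62. Proteins that link filaments and microtubules to the membrane or turn filaments over had a median of 0.37 over 21 genes. The ankyrin genes Ank3 and Ank2 lay at 0.97 (5 probes, all at or above 0.56) and 0.77 (8 probes, all at or above 0.25). The spectrin gene Sptb, which is abundant in red blood cells, lay at -1.75 and the adducin gene Add3 at -0.92. Among 13 ubiquitin and ubiquitin hydrolase genes the median was -0.08, with Uchl3, the closest relative of Uchl1, at -0.42, Ubb at -0.04 and Usp9x at 1.26.

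Markers of neuronal classes lay near 0. For the 2-fold counts that follow, 9.08% of all measured genes were higher and 7.04% lower. Markers of large myelinated neurons, the class rich in Nefh, had a median of -0.17 over 15 measured genes, 9 of them below 0 and 0 at least 2-fold apart in either direction. Markers of small unmyelinated neurons, the class rich in Prph, had a median of 0.19 over 17 genes, with 1 past 2-fold above (5.88%) and 2 past 2-fold below (11.8%). The summed scaled signal was 200.5 in Dock8-/- and 243.0 in Dock8+/- for the large neuron list, and 547.2 in Dock8-/- and 512.5 in Dock8+/- for the small neuron list. Most of the gap in the large neuron sum came from Pvalb (-0.83) and Ldhb (-0.34, with a probe as low as -1.61), while 6 of the 15 genes lay above 0. Markers of other cells lay further from 0. Those of spinal cord glia were higher, with a median of 1.25 over 6 measured genes of which 5 (Gfap among them) were at least 2-fold higher, and satellite glia markers had a median of 0.98 over 8 genes. Of these 8, 4 were at least 2-fold higher, whereas Fabp7 was 4.63-fold lower and Apoe lay at -0.09. Schwann cell markers were split, with a median of -0.38 over 8 genes, 3 above 0 and 5 below, and 1 at least 2-fold apart in each direction. Fibroblast markers had a median of -2.28 over 6 genes, macrophage markers -1.82 over 6 and skeletal muscle markers -3.94 over 3. Summed scaled signals in Dock8-/- and Dock8+/- were 56.6 and 13.2 for spinal cord glia, 769.4 and 554.2 for satellite glia, and 556.1 and 631.4 for Schwann cells. They were 255.2 in Dock8-/- and 834.6 in Dock8+/- for fibroblasts, and 30.04 in Dock8-/- and 126.4 in Dock8+/- for macrophages. The muscle genes Acta1, Ckm and Mylpf were not well above background in Dock8-/-. The part of cell composition in the filament and Map2 values was not tested.

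**Figure D4:**
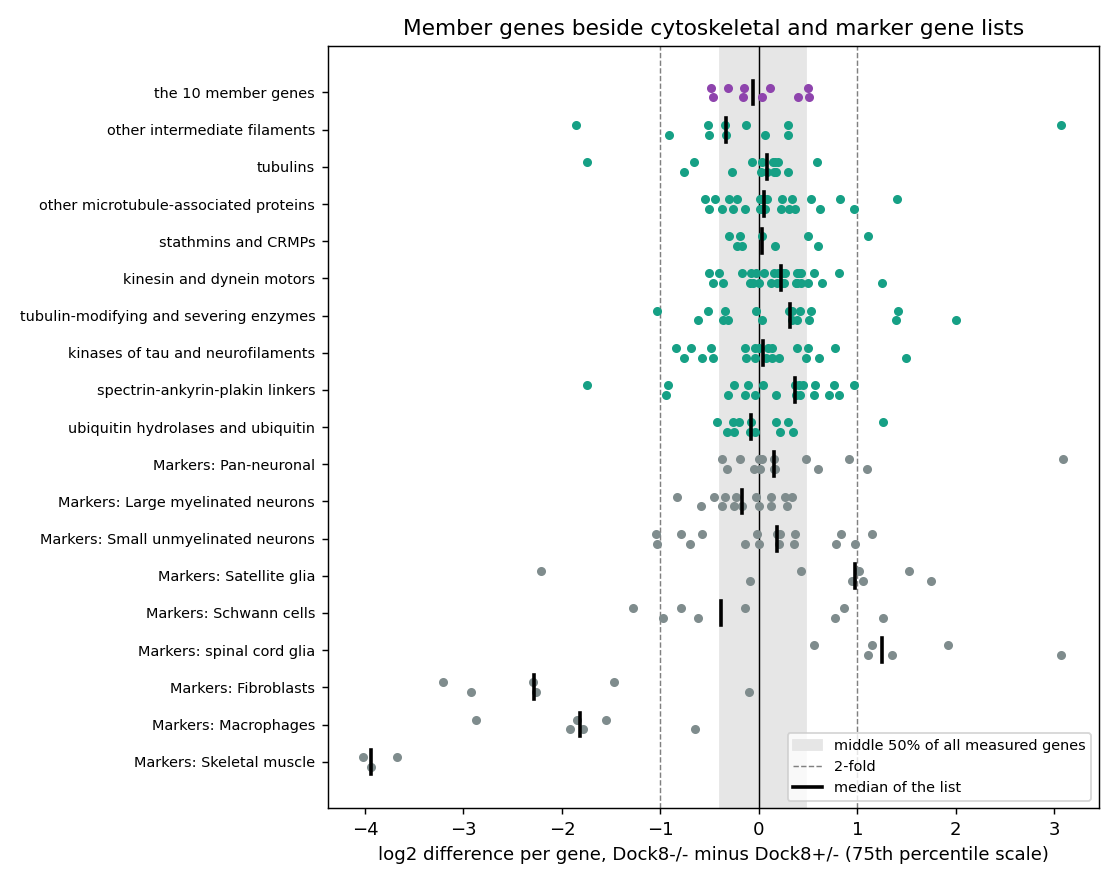
Log2 difference per gene, Dock8-/- minus Dock8+/-, on the 75th percentile scale for the 10 member genes and for each list, with 1 point a measured gene (its brightest probe) and a bar at the list's median. The members lie between -0.49 and 0.51 with a median of -0.06, and the medians of the 9 cytoskeletal and related lists run from -0.33 to 0.37. Fibroblast, macrophage and muscle markers lie far below 0 (medians -2.28, -1.82 and -3.94).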

How the data were processed

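Per the labels' protocols, total RNA was isolated with Isogen and labelled with Cy3 by a low-input kit. The deposited scanner files give linear spot intensity, background-subtracted by spatial detrending by the authors with Agilent Feature Extraction (version 10.7.1.1 per the file headers, 9.5.1.1 per the submitters' processing notes). The authors' deposited value table, set against the scanner files, proved to be linear, uncentred and quantile normalised intensity (98.9% of sorted values equal, median 27.9 in each column), and served as an alternative. The arrays shared 1 slide and 1 scan time, per the file headers. Spots of 1 probe were averaged as log2 processed intensity, leaving out non-uniform spots (1 on the Dock8-/- and 3 on the Dock8+/- array), and each array's 75th percentile was subtracted. No spot was saturated (0 on each array). Probes were renamed by RefSeq accession (32994), current symbol (10224) or older symbol (520) of GRCm38.p6, used for names only, and 12867 kept the file's name. A gene with several probes took the brightest. A probe was measured when well above background on both arrays, and 0 value columns were left unused. A dim probe gave a bound against the lowest signal well above background, 16.1 on the Dock8-/- array. Lists named all members and up to 3 genes in each direction with an absolute difference of at least 0.5, plus 10 genes by name. The members, lists, tests and alternatives were chosen with earlier results of these data known. Alternatives used other scalings (limma 3.58.1 for normexp, offset 50, and loess, span 0.3), 8 of 10 spike-in probes, thresholds, detection flags and probe rules. Scripts were tested on simulated data. Some genes and 1 probe sequence that these rules name are not reported here.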

Additional observations from a re-analysis of the deposited data

How the results depend on the processing

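No paired analysis was possible because neither genotype had more than 1 array, and for the same reason no replicate could be left out. The 2-fold counts of member probes were 2 higher and 2 lower, those of all genes 1694 and 1312, those of the cytoskeletal lists 9 and 4, and the medians were -0.06 for member genes, 0.04 for member probes and 0.08 for the lists. Spike-in scaling (every value shifted by -1.85) gave 0 and 22 member probes with 0 above 0 in place of 15, 57 and 16292 genes, 1 and 153 list genes, and medians of -1.91, -1.81 and -1.77, and turned the 2 highest Map2 probes to -0.41 and -0.81. Scaling to the median (shift of -0.23) gave 1 higher member probe, 999 and 2125 genes, 8 lower list genes and medians of -0.28, -0.19 and -0.15. Normexp gave 1 higher member probe, 703 and 865 genes and medians of -0.25, -0.10 and -0.10. The median of member genes was -0.13 with quantile normalisation and with the authors' value table, and -0.15 without purine-repeat probes, since the brightest Mapt probe holds one; the mean of probes put the list median at 0.17. By construction, 1.5-fold gave 7 higher member probes, 3888 and 3151 genes and 22 and 13 list genes, 3-fold gave 0 and 0 member probes, 486 and 424 genes and 2 higher list genes, no filter on dim probes 5437 and 2760 genes and the other detection flag 3403 and 2070. Elsewhere the cause was not tested. Of genes 2-fold apart, 56.4% were higher, but 31.98% with the median, 0.349% with spike-ins, 44.8% with normexp, 45.8% with loess and 66.3% without a filter. The number of arrays limits the precision, and probes near background limit Nefm and Uchl1.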
